A study of Mus musculus with 9 samples.

Results

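The 10 genes described here encode the mouse MHC class II chains H2-Aa, H2-Ab1 and H2-Eb1 and the peptide exchange chains H2-DMa, H2-DMb1 and H2-DMb2. They also encode the H2-DO chains H2-Oa and H2-Ob, the invariant chain Cd74 and the class II transactivator Ciita. They were taken by gene name from the annotation of the array's probes, which gave 16 probes for these 10 genes, of 28478 gene names on the array. The arrays held RNA of epithelial cells sorted from C57BL/6 mice, on 9 single-colour Agilent arrays in 3 groups of 3. The kidney group was Epcam-positive cells freed with collagenase, dispase and DNase, and each replicate pooled 4 mice. The MHCIIhi group was small intestinal cells released with EDTA and gated as high for Epcam and MHC class II at the surface, and the MHCIIlo group was gated as intermediate for both, with 3 mice pooled per replicate in each. All sorts were negative for the leukocyte protein CD45 and for the dead-cell dye Fluorogold. No gene was altered and no treatment was given in the labels, and ages were not stated there. MHC class II was a gate of the intestinal sorts and not of the kidney sort, so the intestinal groups were chosen by surface protein and the values below are transcripts.

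MHC class II molecules are pairs of an alpha and a beta chain that carry peptides from endosomes to the cell surface for helper T cells. New pairs bind the invariant chain Cd74, which fills the groove and directs them to endosomes, where H2-DM exchanges the remaining fragment for peptides and H2-DO, found mainly in B cells and thymic epithelium, restrains H2-DM. Transcription depends on CIITA, a coactivator recruited to the RFX, CREB and NF-Y factors at the X and Y boxes of class II promoters, and interferon gamma induces it in cells that are not professional antigen presenters. Enterocytes of the small intestine are among the epithelial cells known to carry class II. C57BL/6 mice carry the H2b haplotype, in which H2-Ea is not transcribed, so they make I-A (H2-Aa with H2-Ab1) but no I-E at the surface although H2-Eb1 is transcribed.

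Of the 10 genes, 8 lie on chromosome 17, in the class II region, as the array's annotation on build mm8 places their probes, and Ciita and Cd74 lie elsewhere. The probes that stood for the classical chains lay at chr17:33892680-33892739 (H2-Aa, minus strand), chr17:33877309-33877368 (H2-Ab1, plus strand) and chr17:33922800-33923261 (H2-Eb1, plus strand), and the Ciita probe at chr16:10439788-10439847 (plus strand). The exon or UTR in which each lies was not annotated in the sources used here. H2-Ab1 had 4 probes, and a pair of them is printed because they cover the same stretch, overlapping by 31 bases with 2 differences, which the capitals mark. H2-Ab1 is polymorphic between strains, so the match of a probe to the C57BL/6 allele can differ. The first of the pair has no mm8 position in the annotation, and the second lies at chr17:33872973-33873032. The H2-Eb1 probe is printed because the array's annotation describes its record as an I-A beta mRNA while naming the gene H2-Eb1. Its position lies between those of H2-Aa and H2-Eb2 and spans 462 bases for a probe of 60, so it was placed across a gap.
H2-Ab1 probe without position: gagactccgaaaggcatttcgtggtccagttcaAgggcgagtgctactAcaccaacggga
H2-Ab1 probe with position: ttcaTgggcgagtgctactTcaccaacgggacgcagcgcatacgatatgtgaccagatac
H2-Eb1 probe: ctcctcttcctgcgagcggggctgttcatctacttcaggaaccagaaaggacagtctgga

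RefSeq promoters on build GRCm38.p6, each 250 bases before to 50 bases after a start site, were at hand for 7 of the 10 genes, with a pair of start sites for H2-DMa. They were searched on both strands for the CCAAT box, the core of the Y box that NF-Y binds, and for the X box core GNNACNGAT, which RFX binds as part of the X box. The letters of the CCAAT box and of the X box core do not overlap in any of these promoters. A CCAAT box was found in promoters of all 7 genes, against 37.4% of 32851 promoters in the whole table, and for H2-DMa only at its second start site. The X box core was found in 4 of the 7 genes (H2-Oa, H2-DMb1, H2-Ob and H2-Eb1), against 7.82% of all promoters. The 150 bases before the start site are printed for genes that carry the X box core followed by a reversed CCAAT box within 40 bases, an arrangement found in 0.329% of all promoters and chosen for counting after the sequences had been seen, and for genes that do not. H2-Eb1 and H2-DMb1 carry that arrangement, and so does H2-Eb2, a neighbouring beta chain gene outside the 10 that was not well above background on any array. H2-DMb2 and H2-Aa carry the reversed CCAAT box without a match to the X box core as spelled here. The capitals mark the motif letters.
H2-Eb1, chr17:34305717-34305866, plus strand: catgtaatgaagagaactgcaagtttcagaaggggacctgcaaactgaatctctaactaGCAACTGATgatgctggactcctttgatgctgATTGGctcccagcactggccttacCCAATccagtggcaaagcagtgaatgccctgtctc
H2-Eb2, chr17:34325525-34325674, plus strand: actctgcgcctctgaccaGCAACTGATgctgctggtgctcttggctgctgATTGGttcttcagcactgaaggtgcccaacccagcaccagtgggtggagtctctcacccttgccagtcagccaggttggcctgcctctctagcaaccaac
H2-DMb1, chr17:34153041-34153190, plus strand: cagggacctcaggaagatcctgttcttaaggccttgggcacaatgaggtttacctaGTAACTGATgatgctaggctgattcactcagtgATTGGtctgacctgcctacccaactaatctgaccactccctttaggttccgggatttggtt
H2-DMb2, chr17:34145099-34145248, plus strand: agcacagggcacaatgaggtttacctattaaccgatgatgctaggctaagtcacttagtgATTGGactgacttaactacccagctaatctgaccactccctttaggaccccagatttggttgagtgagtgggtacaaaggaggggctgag
H2-Aa, chr17:34287824-34287973, minus strand: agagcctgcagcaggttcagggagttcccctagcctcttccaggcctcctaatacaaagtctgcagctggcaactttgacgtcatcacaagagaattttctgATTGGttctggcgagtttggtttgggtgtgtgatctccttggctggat
The first base of the X box core lay at -94 in H2-DMb1, counted from the start site, at -91 in H2-Eb1, at -132 in H2-Eb2 and at -140 in H2-Oa, and in H2-Ob it lay after the start site at 33 on the reverse strand. The reversed CCAAT box began at -61 in H2-DMb1, -59 in H2-Eb1, -100 in H2-Eb2, -90 in H2-DMb2, -48 in H2-Aa, -57 in H2-Ob and -43 in H2-Oa.

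**Figure D1:**
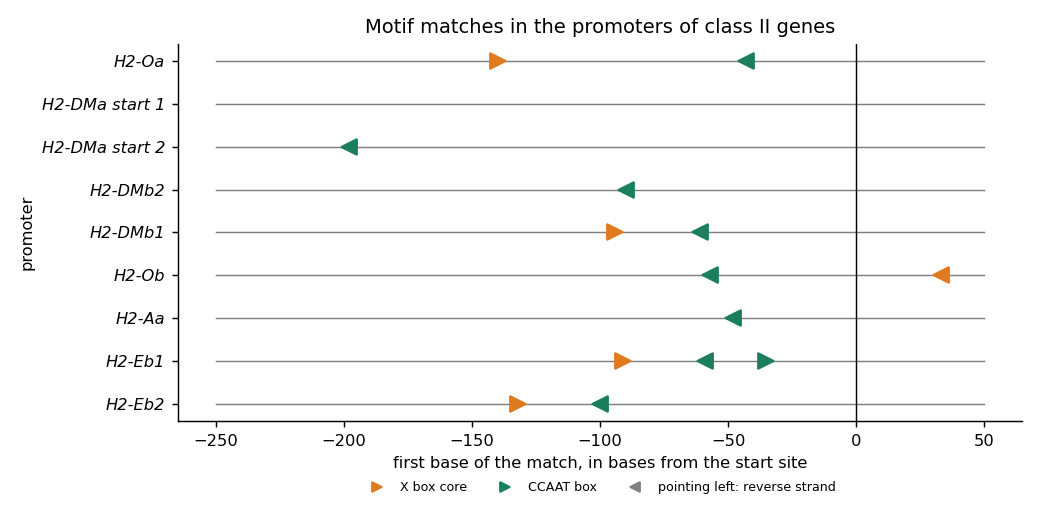
Map of motif matches in the RefSeq promoters of class II genes, with the first base of each match on the x axis in bases from the start site and one line per promoter. Orange marks the X box core and green the CCAAT box, and a triangle pointing left is a match on the reverse strand. In H2-DMb1, H2-Eb1 and H2-Eb2 a reversed CCAAT box follows the X box core within 40 bases.

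Between 71.2% and 73.2% of spots were well above background on the kidney arrays, between 60.9% and 64.7% on the MHCIIhi arrays, and between 51.0% and 57.3% on the MHCIIlo arrays. The kidney arrays shared a slide of their own, so kidney and slide cannot be told apart. MHCIIhi 1 and 2 lay on another slide, and MHCIIhi 3 shared a slide with all MHCIIlo arrays. Epcam, the gate's adhesion molecule, read 2.03 to 3.16 in kidney cells, 4.85 to 5.31 in MHCIIhi cells and 5.06 to 5.46 in MHCIIlo cells on the log2 scale used throughout, which is the processed signal over the array's 75th percentile. It was lower in kidney cells than in MHCIIhi cells (log2 difference -2.55 ± 0.30 SE, limma adjusted p = 7.75e-05), and between MHCIIhi and MHCIIlo cells it differed by -0.26 ± 0.30 (adjusted p = 0.480).

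All 8 genes that could be tested fell in kidney cells against both intestinal groups, by 9.17-fold to 251-fold, and 3 of the 8 (Ciita, Cd74 and H2-DMb1) fell in MHCIIhi cells against MHCIIlo cells. No class II gene was called higher in MHCIIhi cells, the group sorted for high surface class II: the count was 0 by limma. At an unadjusted limma p below 0.05 the count was also 0, and 6 of the 8 were lower. The share of all genes at that unadjusted threshold was not counted, so the 6 are not read as particular to class II. Tests ran over 19993 genes, and a gene was called at an adjusted p below 0.05 and a log2 difference of at least 1. Of all genes tested, 14.9% were called higher and 16.1% lower in MHCIIhi than in MHCIIlo cells, 25.6% higher and 22.8% lower in kidney than in MHCIIhi cells, and 29.8% higher and 27.8% lower in kidney than in MHCIIlo cells. The median log2 difference of the 8 genes was -0.65 for MHCIIhi minus MHCIIlo, -5.60 for kidney minus MHCIIhi and -6.16 for kidney minus MHCIIlo, beside medians over all genes tested of -0.24, -0.02 and 0.04. Every kidney array lay below every intestinal array for 8 of 8 genes, against 27.8% of all genes tested. Every MHCIIhi array lay below every MHCIIlo array for 4 of 8 genes (Ciita, Cd74, H2-DMb1 and H2-DMb2), against 32.7% of all genes tested. In sorted pools, fewer cells that express a gene and less RNA of it per cell cannot be told apart.

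**Figure D2:**
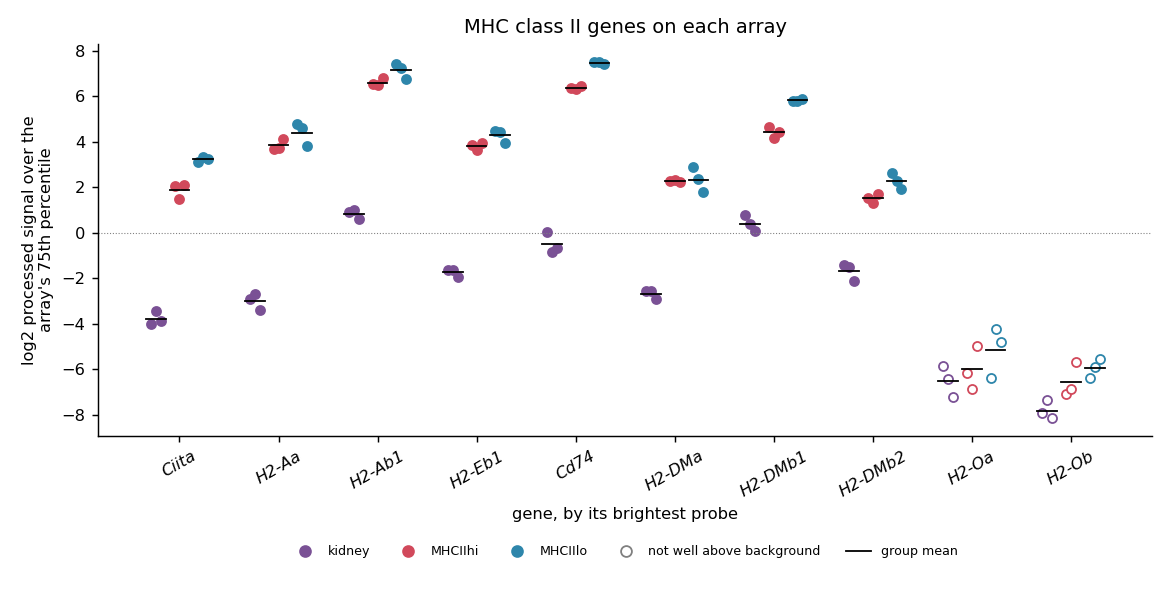
Level of each class II gene on every array, as the log2 processed signal of its brightest probe over the array's 75th percentile; each point is 1 array, open points are not well above background and black lines are group means. For 8 genes the 3 kidney arrays lie below all 6 intestinal arrays, and H2-Oa and H2-Ob are open in every group.

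Ciita, the transactivator that class II transcription depends on, was 7.00 lower on the log2 scale in kidney cells than in MHCIIlo cells, which is 128-fold, and MHCIIhi cells stood between. It read -4.01, -3.46 and -3.89 in kidney cells, 2.07, 1.47 and 2.08 in MHCIIhi cells and 3.11, 3.31 and 3.23 in MHCIIlo cells. No groups overlapped, and MHCIIhi 2 was the lowest intestinal array. Ciita was 50.4-fold lower in kidney than in MHCIIhi cells (log2 difference -5.66 ± 0.23 SE, adjusted p = 1.37e-07). It was 2.54-fold lower in MHCIIhi than in MHCIIlo cells (-1.35 ± 0.23, adjusted p = 0.00257). With slide as a fixed block, which rests on MHCIIhi 3 against the MHCIIlo arrays of its own slide, that difference was -1.14 with adjusted p = 0.0625, so the call was lost.

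H2-Aa and H2-Ab1 encode I-A, the class II that C57BL/6 mice carry at the surface, where the intestinal gates measured it. All 3 classical chains, H2-Eb1 included, were called lower in kidney cells, and none was called different between the intestinal groups. H2-Aa, the I-A alpha chain, read -2.91, -2.72 and -3.42 in kidney cells, 3.68, 3.73 and 4.11 in MHCIIhi cells and 4.77, 4.58 and 3.83 in MHCIIlo cells. H2-Ab1, the I-A beta chain, read 0.90, 0.99 and 0.59 in kidney cells, 6.51, 6.47 and 6.78 in MHCIIhi cells and 7.41, 7.24 and 6.75 in MHCIIlo cells. H2-Eb1, the I-E beta chain, read -1.65, -1.65 and -1.94 in kidney cells, 3.87, 3.61 and 3.94 in MHCIIhi cells and 4.47, 4.43 and 3.93 in MHCIIlo cells. Kidney arrays were the lowest for each chain, and MHCIIlo 3 fell within the MHCIIhi range for each, so the intestinal groups overlapped. In kidney against MHCIIhi cells the log2 difference was -6.86 ± 0.29 SE for H2-Aa (116-fold lower), -5.76 ± 0.22 for H2-Ab1 (54.2-fold) and -5.55 ± 0.20 for H2-Eb1 (47.0-fold), with limma adjusted p of at most 1.92e-07. In kidney against MHCIIlo cells the fold was 170 for H2-Aa, 79.0 for H2-Ab1 and 65.0 for H2-Eb1. In MHCIIhi against MHCIIlo cells the log2 difference was -0.55 for H2-Aa (95% interval -1.21 to 0.11, adjusted p = 0.141), -0.55 for H2-Ab1 (-1.04 to -0.05, adjusted p = 0.0634) and -0.47 for H2-Eb1 (-0.93 to -0.01, adjusted p = 0.0811). These intervals leave room for a log2 difference of 1 in H2-Aa and H2-Ab1 and do not show that the groups are alike.

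The other probes of the I-A chains gave the same calls as the probes above. The second H2-Aa probe read -3.69 to -3.12 in kidney cells, 3.04 to 3.63 in MHCIIhi cells and 2.92 to 4.23 in MHCIIlo cells. The remaining 3 H2-Ab1 probes were called lower in kidney than in MHCIIhi cells by -5.62, -5.49 and -5.30 on the log2 scale. Between MHCIIhi and MHCIIlo cells these 3 differed by -0.36, -0.29 and -0.20, with adjusted p of 0.265, 0.412 and 0.581. The pair printed above, whose overlap differs at 2 bases, thus gave differences between kidney and MHCIIhi cells of -5.49 for the probe with a position and -5.30 for the probe without one.

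Cd74, the invariant chain, was 251-fold lower in kidney than in MHCIIlo cells, by the largest log2 difference among the 8 genes in that comparison (-7.97 ± 0.23 SE, adjusted p = 2.45e-08). It read 0.04, -0.85 and -0.69 in kidney cells, 6.34, 6.34 and 6.44 in MHCIIhi cells and 7.49, 7.51 and 7.41 in MHCIIlo cells. The groups did not overlap, and the arrays within each intestinal group lay close together. It was 117-fold lower in kidney than in MHCIIhi cells (-6.87 ± 0.23, adjusted p = 5.82e-08) and 2.14-fold lower in MHCIIhi than in MHCIIlo cells (-1.10 ± 0.23, adjusted p = 0.00627). The call between the intestinal groups was lost with quantile normalization (-0.75, under the size threshold), with normexp background correction (-0.84) and with slide as a fixed block (-1.03, adjusted p = 0.0959).

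The DM chains were lower in kidney cells by 9.17-fold to 42.7-fold, and in the intestine H2-DMb1 differed between the gates while H2-DMa passed no test. H2-DMa, the alpha chain of the peptide exchange factor, read -2.59, -2.56 and -2.91 in kidney cells, 2.29, 2.33 and 2.22 in MHCIIhi cells and 2.88, 2.34 and 1.78 in MHCIIlo cells. It was 31.2-fold lower in kidney than in MHCIIhi cells (-4.97 ± 0.27 SE, adjusted p = 7.26e-07), and the MHCIIlo arrays spanned the MHCIIhi range on both sides. The log2 difference of MHCIIhi minus MHCIIlo was -0.05 (95% interval -0.66 to 0.55, adjusted p = 0.881), and its sign turned under 2 other scalings (0.14 with quantile normalization, 0.23 with normexp) and to 0.22 without MHCIIlo 1. H2-DMb1, the main beta chain gene, read 0.76, 0.37 and 0.06 in kidney cells, 4.63, 4.18 and 4.42 in MHCIIhi cells and 5.77, 5.80 and 5.86 in MHCIIlo cells. The groups did not overlap. H2-DMb1 was 2.64-fold lower in MHCIIhi than in MHCIIlo cells (-1.40 ± 0.21, adjusted p = 0.00177), the largest difference among the 8 genes between the intestinal groups, and kept its call with slide as a fixed block (-1.39, adjusted p = 0.0354). With quantile normalization it lost the call (-0.96, under the size threshold), and Ciita then had the larger difference (-1.08). It was 16.2-fold lower in kidney than in MHCIIhi cells and 42.7-fold lower than in MHCIIlo cells (adjusted p = 7.07e-07 and 1.12e-07).

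H2-DMb2, a paralog next to H2-DMb1, read -1.42, -1.53 and -2.12 in kidney cells, 1.53, 1.29 and 1.70 in MHCIIhi cells and 2.61, 2.26 and 1.93 in MHCIIlo cells by its brighter probe. It was 9.17-fold lower in kidney than in MHCIIhi cells (-3.20 ± 0.25 SE, adjusted p = 7.26e-06) and 15.5-fold lower than in MHCIIlo cells (-3.95 ± 0.25, adjusted p = 1.69e-06). Between MHCIIhi and MHCIIlo cells it differed by -0.76 ± 0.25 with adjusted p = 0.0350, under the size threshold, though no arrays overlapped. Its other probe was not well above background on any array, so the H2-DMb2 probes disagree. The beta chain genes are close copies, and how far H2-DMb1 RNA reached the H2-DMb2 probe was not tested.

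The chains of H2-DO, the factor that restrains H2-DM, were not measured in any group. H2-Ob was not well above background on any of 9 arrays. H2-Oa was not well above background on any array by its brighter probe and on kidney 2 alone by its other probe. Neither gene was tested. H2-Ea, the alpha chain that C57BL/6 mice do not transcribe, was likewise not well above background on any array. By group mean the 8 measured genes were lowest in kidney, next in MHCIIhi and highest in MHCIIlo cells (for H2-DMa not under quantile normalization or normexp). For H2-Aa, H2-Ab1, H2-Eb1 and H2-DMa the arrays of the intestinal groups overlapped, and none of these intestinal differences was called.

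**Figure D3:**
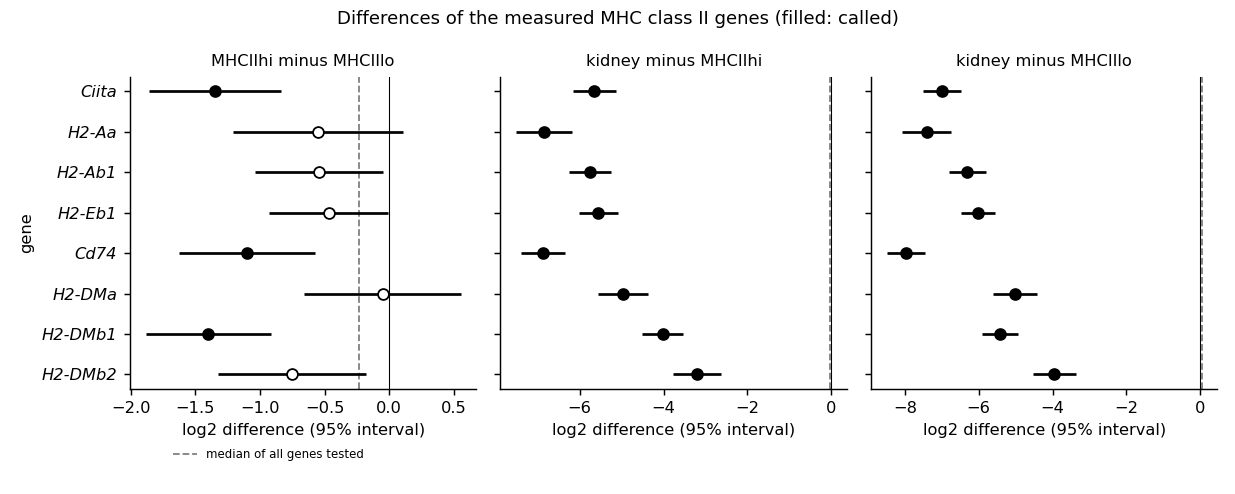
Log2 differences of the 8 measured class II genes in the 3 comparisons, with 95% intervals from limma; filled points were called and the dashed line is the median of all genes tested. In MHCIIhi minus MHCIIlo the points run from -1.40 for H2-DMb1 to -0.05 for H2-DMa, and in both kidney comparisons every interval lies below -2.

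To compare the genes free of the scaling between arrays, each other gene was set against the mean of H2-Aa, H2-Ab1 and H2-Eb1 on the same array. The log2 ratio depends on the probes, so only its difference between groups is read. Cd74 over the classical chains was lower in kidney cells (1.26, 0.27 and 0.90) than in MHCIIhi cells (1.65, 1.73 and 1.49), and lower in both than in MHCIIlo cells (1.94, 2.09 and 2.57), with no overlap. H2-DMb1 over the classical chains was higher in kidney cells (1.99, 1.49 and 1.64) than in MHCIIhi cells (-0.05, -0.43 and -0.52) or MHCIIlo cells (0.23, 0.38 and 1.03). H2-DMb2, by its brighter probe, showed the largest such difference. Its ratios were -0.20, -0.40 and -0.53 in kidney cells, -3.16, -3.31 and -3.24 in MHCIIhi cells and -2.94, -3.16 and -2.90 in MHCIIlo cells. Its other probe was not well above background on any array, so this difference rests on a single probe. H2-DMa was also higher against the classical chains in kidney cells, by 1.09 over MHCIIhi and 1.56 over MHCIIlo cells. Set against H2-Aa alone, Cd74 hardly stood apart in kidney minus MHCIIhi (-6.87 for Cd74 and -6.86 for H2-Aa), and with quantile normalization H2-Aa had the larger difference (-7.06, and -6.78 for Cd74). Ciita kept overlapping ratios between kidney (-2.79 to -2.30) and MHCIIhi cells (-3.14 to -2.62). Against MHCIIlo cells, the ratios in MHCIIhi cells were lower without overlap for Ciita (difference -0.83), Cd74 (-0.58) and H2-DMb1 (-0.88). Each of these differences without overlap had the smallest p that 3 against 3 arrays allow, an exact two-sided permutation p of 0.10, and over the 15 tests the smallest adjusted p was 0.136, so none passes a threshold of 0.05.

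**Figure D4:**
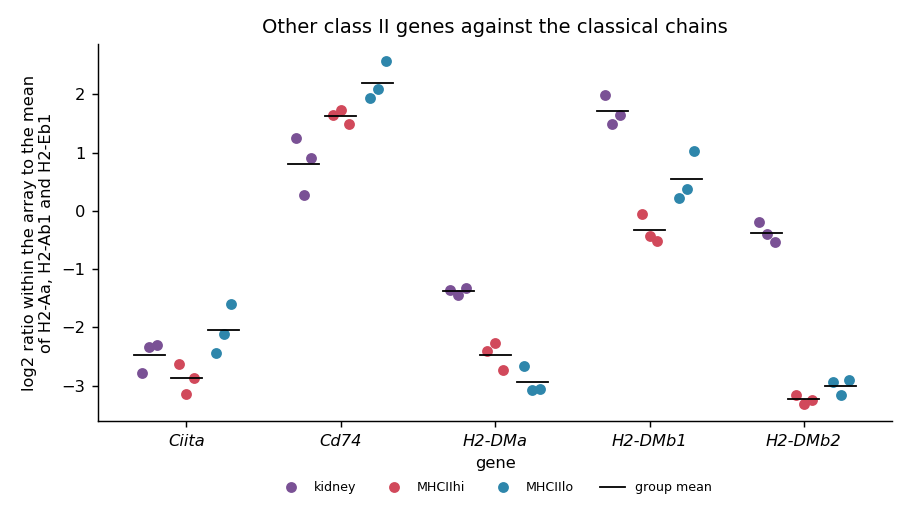
Log2 ratio of Ciita, Cd74 and the DM chains to the mean of the classical chains on the same array, 1 point per array, with group means as lines. Each gene is read by its brightest probe. The kidney points lie above the intestinal points for H2-DMa, H2-DMb1 and H2-DMb2 and below them for Cd74.

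Among 21 factors of class II promoters and interferon gamma signalling, 1 was called higher and 9 lower in kidney than in MHCIIhi cells, and 2 higher and 12 lower in kidney than in MHCIIlo cells. The shares called lower were 42.9% and 57.1%, beside 22.8% and 27.8% of all genes. Their median log2 difference was -0.83 and -1.25 in those comparisons, beside the medians of all genes given above. Irf8, an interferon-induced transcription factor, had the largest difference, with -2.63, -1.73 and -2.38 in kidney cells, 4.21, 4.28 and 4.07 in MHCIIhi cells and 4.63, 4.34 and 3.86 in MHCIIlo cells (86.5-fold lower in kidney than in MHCIIhi cells, adjusted p = 2.04e-07). The interferon gamma receptor chains fell in kidney against MHCIIhi cells by 2.73 (Ifngr1) and 2.46 (Ifngr2) on the log2 scale, and the receptor's kinase Jak2 fell by 2.05. Nfyc, a subunit of NF-Y, rose in kidney cells by 1.30 over MHCIIhi and by 1.54 over MHCIIlo cells. Rfx5, a subunit of RFX, was called higher in kidney than in MHCIIlo cells (2.12, adjusted p = 0.000418), or by 1.16 with the 2 MHCIIlo arrays that did not measure it at their lowest measured signal.

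In MHCIIhi against MHCIIlo cells, 1 of the 21 factors was called higher and 4 lower, with a median of -0.52 beside -0.24 over all genes. The 19.0% called lower lay near the 16.1% of all genes, and the 4.76% called higher lay below the 14.9% of all genes. Rfxank, a subunit of the RFX complex on the X box, read 0.16, 0.40 and 0.87 in MHCIIhi cells and 1.66, 1.80 and 2.11 in MHCIIlo cells (-1.38 ± 0.22 SE, adjusted p = 0.00192). Jak2 was lower by 1.34, Ifngr2 by 1.05 and Kat2b, a histone acetyltransferase that binds CIITA in human cells, by 1.03. Rfx5, the DNA-binding subunit of RFX, was the one called higher (log2 difference 1.26, adjusted p = 0.0152), but it was well above background on 3 of 3 MHCIIhi arrays and on only 1 of 3 MHCIIlo arrays. With the dim arrays at their lowest measured signal the difference was 0.31, under the size threshold, so the call rests on values at background. Rfxap, the third subunit, differed by -0.17 (adjusted p = 0.367).

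Of 12 genes of class II turnover and transport, 11 were tested, and Marchf1, a ubiquitin ligase of class II in professional antigen-presenting cells, was not. In kidney against MHCIIhi cells 3 were called higher (27.3%, near the 25.6% of all genes) and 4 lower (36.4%, beside 22.8%), with a median of -0.27. Ctss, the protease that cleaves the invariant chain in most antigen-presenting cells, was 172-fold lower in kidney than in MHCIIhi cells (-7.43 ± 0.45 SE, adjusted p = 1.50e-06). Ctsl, the protease that does so in thymic epithelium, was 13.5-fold higher (3.76 ± 0.18, adjusted p = 3.85e-07), and Lgmn and Marchf9 were higher by 2.10 and 1.51. Arl14, a small GTPase of class II vesicle transport in human dendritic cells, was well above background on no kidney array and was at least 299-fold lower in kidney than in MHCIIhi cells, taking the dimmest measured signal of each kidney array as its bound (adjusted p = 6.30e-07). Cd83 and Ifi30 fell by 1.36 and 1.23. In kidney against MHCIIlo cells 2 were called higher (Ctsl by 3.32 and Lgmn by 2.26), which is 18.2%, below the 29.8% of all genes. The 4 called lower were Ctss, Cd83, Ifi30 and Arl14 (36.4%, beside 27.8%), and the list median was -0.30. In MHCIIhi against MHCIIlo cells 2 were called lower (18.2%, near the 16.1% of all genes) and 0 higher, with a median of -0.43: Arl14 (-1.65) and Marchf8 (-1.17), a ubiquitin ligase of class II in thymic epithelium.

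Of 8 other genes of the class II region, 7 were on the array and 5 were tested. The immunoproteasome subunits Psmb8 and Psmb9 fell in kidney against MHCIIhi cells by 2.87 and 3.37, and the peptide transporter chain Tap1 fell by 2.16. These 3 were 60% of the 5, beside 22.8% of all genes called lower in that comparison. In kidney against MHCIIlo cells the same 3 and Tap2 were called lower (80%, beside 27.8%). Tap2 alone was called lower in MHCIIhi than in MHCIIlo cells (-1.15 ± 0.29 SE, limma adjusted p = 0.0129). That was 20% of the 5, near the 16.1% of all genes, with a list median of -0.11 beside -0.24. Brd2, which lies beside the DM genes and encodes a chromatin reader, was called in no comparison. Its log2 difference was -0.48 for kidney minus MHCIIhi and -0.11 for MHCIIhi minus MHCIIlo.

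B cells, macrophages and dendritic cells make class II, so their markers were summed on each array, in multiples of its 75th percentile. The 9 markers of B cells and plasma cells summed to 0.415 to 0.602 in kidney cells, 1.12 to 2.33 in MHCIIhi cells and 21.8 to 36.4 in MHCIIlo cells, with 6 or 7 of the 9 well above background on each intestinal array. Pax5 was not well above background on any array, and Cd22 on 1 array each of MHCIIhi and kidney. This list thus moved in the same order as the class II genes, and its part in their differences was not tested. The 16 markers of macrophages and dendritic cells summed to 2.50 to 6.22 in kidney cells, 99.4 to 173.5 in MHCIIhi cells and 16.6 to 52.2 in MHCIIlo cells, of which Lyz2 made the larger part in the intestine. Without Lyz2 the sums were 2.07 to 2.62 in kidney cells, 1.51 to 2.29 in MHCIIhi cells and 3.06 to 5.70 in MHCIIlo cells, and Csf1r, a receptor of macrophages, made the larger part of the kidney sum. Without Lyz2 and Csf1r the sums were 0.489 to 0.886 in kidney cells, 1.48 to 2.24 in MHCIIhi cells and 2.96 to 5.54 in MHCIIlo cells. That sum was taken after these values were seen, and its order was that of the class II genes. C1qb made the larger part of the MHCIIlo sums, reading 0.82, 1.53 and 2.04 there and -0.76, -1.38 and 0.02 in MHCIIhi cells. The order of the intestinal groups in that sum thus rests largely on this gene. Cd68, Itgam and Lyz2 were higher in MHCIIhi than in MHCIIlo cells, by 0.98, 1.19 and 2.37, and the other tested markers were lower. Of the 10 markers tested, 1 (Csf1r) was called higher and 6 lower in kidney than in MHCIIhi cells, with a median of -1.24. These are 10% and 60%, beside 25.6% and 22.8% of all genes. In MHCIIhi against MHCIIlo cells 1 (Lyz2) was called higher and 3 lower, with a median of -0.73. These are 10% and 30%, beside 14.9% and 16.1% of all genes. The part of these cells in the class II differences was not tested. Clec9a and Cx3cr1 were not well above background on any array. The 8 T cell and intraepithelial lymphocyte markers on the array summed to 0.928 to 1.64 in kidney cells, 1.52 to 3.18 in MHCIIhi cells and 5.47 to 10.2 in MHCIIlo cells, and their part was not tested either. Ptprc, the gene of CD45, was well above background on all 9 arrays and read -1.17 to -0.76 in kidney cells, -3.51 to -1.55 in MHCIIhi cells and -1.85 to -1.18 in MHCIIlo cells. It was higher in kidney than in MHCIIhi cells (1.45 ± 0.44 SE, limma adjusted p = 0.0176), against the direction of the class II genes. Kidney minus MHCIIlo was 0.52 (adjusted p = 0.303) and was not called. Between the intestinal groups Ptprc ran in the direction of the class II genes, also without a call (MHCIIhi minus MHCIIlo -0.92, adjusted p = 0.107).

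The 6 epithelial markers were measured on every array and summed to 112 to 132 in kidney cells, 1312 to 1511 in MHCIIhi cells and 1685 to 1937 in MHCIIlo cells. All 8 kidney epithelial markers were well above background on each kidney array, and all 5 intestinal epithelial markers on each intestinal array. The 4 endothelial markers summed to 19.8 to 45.4 in kidney cells, with all 4 well above background there, against 0.027 to 0.060 in MHCIIhi cells and 0.047 to 0.090 in MHCIIlo cells, with none of the 4 measured. The part of endothelial RNA in the class II levels of kidney cells was not tested.

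**Figure D5:**
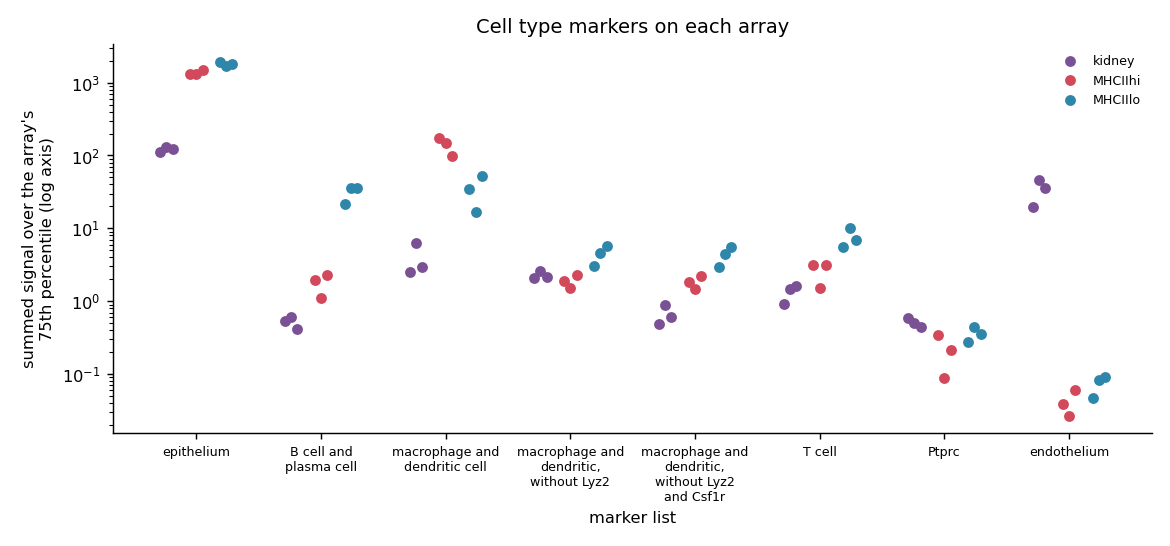
Summed signal of each marker list on every array, in multiples of the array's 75th percentile on a log axis, 1 point per array. B cell and plasma cell markers run from kidney (at most 0.602) through MHCIIhi (at most 2.33) to MHCIIlo (at least 21.8). Macrophage and dendritic cell markers without Lyz2 and Csf1r run in the same order (at most 0.886, at most 2.24 and at least 2.96). In MHCIIlo cells C1qb makes the larger part of that last sum.

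The genes whose profile over the 9 arrays was nearest to that of the classical chains, by the root mean square of log2 differences after each gene's own mean was taken off, were Ceacam1 (0.22), Plac8 (0.23), Fbp2 (0.26), Gucy2c (0.26) and Mst1r (0.27), out of 9670 candidates. Ceacam1, an adhesion molecule, averaged 0.11 in kidney cells, 6.18 in MHCIIhi cells and 6.48 in MHCIIlo cells. Nearest to Ciita were Snx20 (0.17), Batf2 (0.19), Panx1 (0.23), Tm4sf4 (0.23) and Ces2e (0.29). Batf2, an interferon-induced transcription factor, averaged -1.81 in kidney cells, 3.90 in MHCIIhi cells and 5.49 in MHCIIlo cells. By the same measure H2-Ab1 and H2-Eb1 were the closest pair among the 8 class II genes (0.14), and Cd74 and H2-DMb2 the farthest (1.84). Since 3 groups set most of each profile, many genes with the same group order lie near by this measure.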

How the data were processed

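RNA of 9 sorted pools was hybridised to single-colour Agilent arrays, and images were read in Agilent Feature Extraction 10.5.1.1, as the file headers state. Processed signal as deposited is a background-subtracted intensity on a linear scale, not normalized between arrays, per the file headers; probe names and positions are those of the array's mm8 annotation. Control and outlier spots were left out, and spots of a probe averaged. Values are log2 of the deposited intensity minus the array's 75th percentile. A gene was represented by its brightest probe; a gene was kept if some group had it well above background on each of its 3 arrays, 19993 in all. Differences came from limma 3.58.1 (lmFit, eBayes; R 4.3.3, data.table version 1.17.8) on all 9 arrays, with Benjamini-Hochberg adjustment over all genes tested. Ratios used exact permutation tests (scipy 1.17.1), and figures matplotlib 3.10.9 with pandas 2.3.3 and Python 3.11.15. The number of arrays limits the precision.

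The genes and lists were chosen with earlier results of these data known. The text names all 10 genes and their probes, Epcam, Ptprc and H2-Ea. It also names up to 4 called list members per direction by size, and the 5 genes nearest in profile. Rfxap, Brd2, Csf1r, C1qb, Cd68, Itgam and the markers named as absent or summed were singled out after their values were seen. Replicates were independent pools, per the labels. Same-numbered arrays did not deviate together (correlations of 0.19, -0.35 and 0.28 between MHCIIhi and MHCIIlo), so the numbers were not used as pairs. Alternatives were other scalings and background corrections, the authors' deposited value table of intensity, other filters, probe averaging and a robust trend. Further ones were fits on pairs of groups, replicate number as a block, no size threshold and leaving out each array. Slide was used as a block for MHCIIhi minus MHCIIlo alone. The fits were tested on simulated arrays. Promoter sequences are from RefSeq, build GRCm38.p6.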

Additional observations from a re-analysis of the deposited data

How the results depend on the processing

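All 8 measured genes remained called lower in kidney than in both intestinal groups under every alternative run for those comparisons. Slide as a block was not among these, since kidney and slide cannot be told apart. Leaving out each array in turn gave 8 throughout. With no filter on dim probes the count was 9, the added gene being one not well above background. Between MHCIIhi and MHCIIlo cells 3 were called lower. Leaving out each array gave 3 every time, while quantile normalization and slide as a fixed block gave 1 each, H2-DMb1 being the one with slide as a block, and adjusted p alone gave 4. None was called higher under any alternative. With quantile normalization the difference was -0.75 for Cd74 and -0.96 for H2-DMb1, and with normexp -0.84 for Cd74. With slide as a fixed block it was -1.14 for Ciita (adjusted p = 0.0625) and -1.03 for Cd74 (adjusted p = 0.0959). H2-DMa turned to 0.14 with quantile normalization, 0.23 with normexp and 0.22 without MHCIIlo replicate 1, within a range of -0.33 to 0.22 over the arrays left out. The replicate block gave 3 genes lower between the intestinal groups and 8 in each kidney comparison, so it changed no call. The median of all genes for MHCIIhi minus MHCIIlo was -0.24, and -0.07 with quantile normalization, -0.32 with scaling to the median and -0.50 with normexp; relative to it Ciita differed by -1.11, Cd74 by -0.86 and H2-DMb1 by -1.16. Over all genes, 52.9% of calls were higher in kidney minus MHCIIhi and 51.7% in kidney minus MHCIIlo, against 39.7% and 26.9% with normexp. Slide as a fixed block made 82.0% of calls higher in MHCIIhi minus MHCIIlo, against 48.1%. The causes of these shifts were not tested. Signal near background limits H2-Oa, H2-Ob and the dimmer H2-DMb2 probe.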
